A study of Mus musculus with 6 samples.

Results

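The enzymes that make, destroy and read out cyclic AMP (cAMP) and cyclic GMP (cGMP) were examined in RNA-seq counts of cultured mouse dendritic cells with and without DB2313. The set was chosen by gene symbol, so not every gene in it need act on a cyclic nucleotide. It held the 10 adenylyl cyclases, the 9 guanylyl cyclase genes and the 23 phosphodiesterase genes. The 6 subunits of protein kinase A (PKA) and the 2 genes of protein kinase G (PKG) completed it. Together these were 50 protein-coding genes of the 54532 genes in the count table. Of these 50 genes, 29 had enough counts to be tested, and 21 were left out of the test for low counts.

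The series held 6 libraries, 3 from cells labelled as control and 3 from cells treated with DB2313. DB2313 is a small molecule inhibitor of Spi1 (PU.1), the transcription factor that myeloid cells depend on. All cells were labelled as dendritic cells kept in culture medium with serum, and no strain, age, genetic change, dose or time of treatment was given in the labels. The column names of the table marked the control libraries as BMDC, which usually stands for dendritic cells grown from bone marrow, and the treated libraries by Spi1. The columns were assigned to the labelled samples by these names, and every direction below rests on them. The methods of the study described cultures of macrophages, not of dendritic cells, so the origin of the cells is known from the labels only. The labels did not say whether the 3 libraries of a group came from separate cultures, and the p-values measure the spread between these libraries, which may be technical.

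cAMP is made from ATP by adenylyl cyclases when a receptor coupled to the G protein Gs is engaged, and cGMP is made from GTP by soluble guanylyl cyclase, which senses nitric oxide, or by membrane receptors for natriuretic peptides. Both are broken down by phosphodiesterases. In between they bind kinases, of which PKA is held inactive by regulatory subunits until cAMP releases its catalytic subunits, and PKA in turn phosphorylates the transcription factor CREB. In dendritic cells and macrophages, prostaglandin E and adenosine act through cAMP and are known to restrain inflammatory cytokines, and the PDE4 enzymes are the drug target that raises cAMP in these cells.

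Total counts per library ranged from 16146743 to 19764677, and the 50 genes took 0.152% to 0.170% of them. Levels are given in CPM, for which the counts of each library were brought to the same total over the tested genes with TMM factors. Summed over 10 dendritic cell markers, control libraries had 10230 to 10450 CPM and treated libraries 8611 to 10160 CPM, with Cd209a near 0. The sum of 10 macrophage markers was 9773 to 11130 CPM in controls and 8871 to 9745 CPM with DB2313. Both sums were high, and both were lower in every DB2313 library than in any control library. Each sum was mostly 1 gene, Cd74 for dendritic cells and Lyz2 for macrophages, with control means of 6557 and 8751 CPM. Neither gene was called (edgeR adjusted p = 0.326 and 0.218), so the sums do not show a fall of either list as a whole. Of the markers tested, 1 dendritic cell marker was higher and 2 were lower of 9, and 2 macrophage markers were higher and 4 were lower of 10. Summed B cell markers were 2.82 to 4.06 CPM in control libraries and 5.05 to 6.44 with DB2313, with 1 of 5 markers tested and none called. Neutrophil markers summed to 4446 to 4997 CPM in control libraries and 4497 to 5907 with DB2313. Mast cell and basophil markers had 1360 to 1435 and 1373 to 1635 CPM. T cell markers had 195 to 233 and 199 to 288 CPM, and platelet markers 181.5 to 207 and 196 to 236 CPM. Markers of cell types other than dendritic cells and macrophages were thus not absent. These sums overlapped between the groups, but 3 neutrophil markers were higher and 1 was lower of 10 tested. Of the mast cell and basophil markers, 2 were higher of 8. No T cell marker of 10 and no platelet marker of 4 was called. Beside these counts, 4.66% of all tested genes were higher and 5.94% were lower. Mitochondrial genes took 2.06% to 2.41% of the counts in control libraries and 1.46% to 1.57% with DB2313, again without overlap. The treated libraries also differed more among themselves, with a chi-square per degree of freedom of 7.43 to 17.7 between pairs (highest for replicates 1 and 3) against 4.77 to 5.28 between control pairs. Spi1 itself had 380.4, 345 and 371 CPM in the control libraries and 349, 328 and 309 CPM with DB2313. The groups overlapped, and the log2 fold change of -0.15 ± 0.07 (SE) did not pass edgeR's quasi-likelihood test (adjusted p = 0.206). DB2313 acts on the protein, so this level does not check the treatment.

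With DB2313, 2 adenylyl cyclases (Adcy3 and Adcy4) rose, 1 adenylyl cyclase (Adcy6) and 1 regulatory subunit of PKA (Prkar2a) fell, and 25 tested genes of the set did not pass an adjusted p of 0.05. Among all 14174 genes tested, 10.6% passed that threshold, 4.66% higher and 5.94% lower, and the 4 calls among 29 genes (13.8%) lay near that background. No phosphodiesterase and no guanylyl cyclase was called. The CPM of the 2 groups did not overlap for 6 genes that were above control and 6 that were below, 12 of 29, against 27.4% of all tested genes. At an unadjusted p under 0.05 there were 9 of 29 genes, against 23.3%. The median log2 fold change of the 29 genes was 0.0079, with a range from -1.05 to 1.16, and that of all tested genes was 0.00082. These are bulk libraries, in which a smaller share of cells that express a gene and less RNA of it per cell cannot be told apart, and the part that the shifts in marker levels and in the mitochondrial share have in the changes below was not tested.

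**Figure D1:**
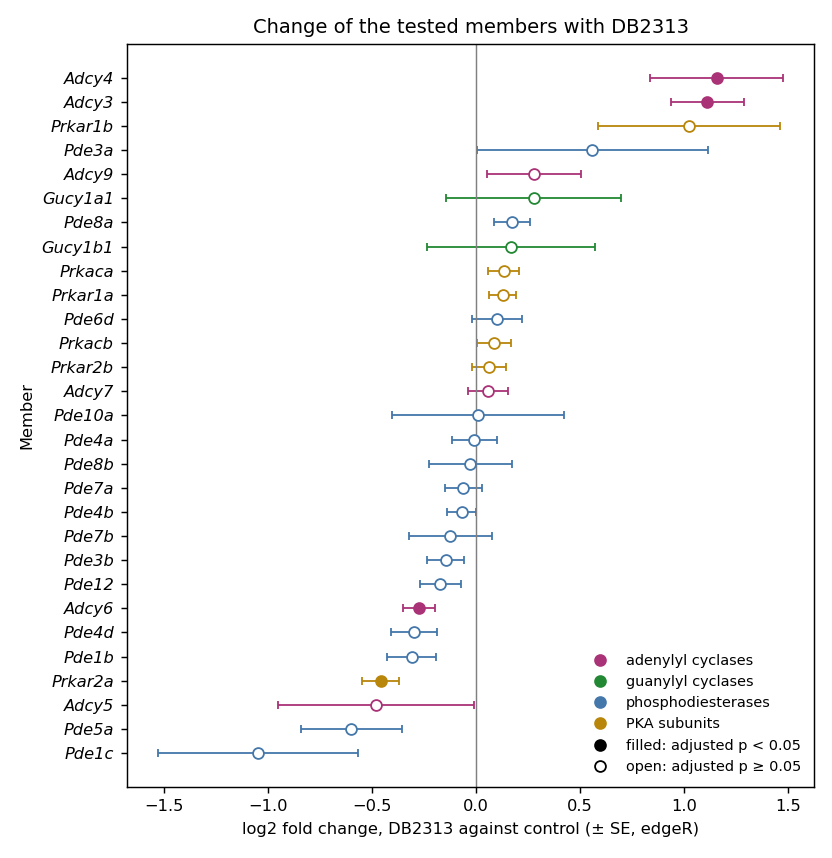
Log2 fold change, DB2313 against control, of the 29 tested genes of the set by family, with bars of 1 SE from edgeR's quasi-likelihood fit to 3 libraries per group. Filled points mark the 4 genes with an adjusted p under 0.05 (Adcy3 and Adcy4 above 0, Adcy6 and Prkar2a below 0), and most other genes lie close to 0 or have wide bars.

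The genes of the set differed widely in level. Per kilobase of gene length, and as means over all 6 libraries, Prkar1a stood highest at 93.7 CPM per kb, followed by Prkaca at 32.3, Adcy6 at 30.6, Adcy7 at 27.3, Pde4b at 17.6 and Prkar2b at 17.1. Summed over families on the same scale, the PKA subunits had 162 ± 0.882 (SD, n = 3) in control libraries and 171.9 ± 0.951 with DB2313. The phosphodiesterases had 66.9 ± 1.09 and 65.3 ± 0.851, and the adenylyl cyclases 63.4 ± 1.52 and 60.6 ± 7.81. Guanylyl cyclases were far lower, with 0.640 ± 0.0930 and 0.633 ± 0.224. The PKA sum was higher in every DB2313 library (171 to 173) than in any control library (161 to 163), and the sums of both cyclase families overlapped.

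**Figure D2:**
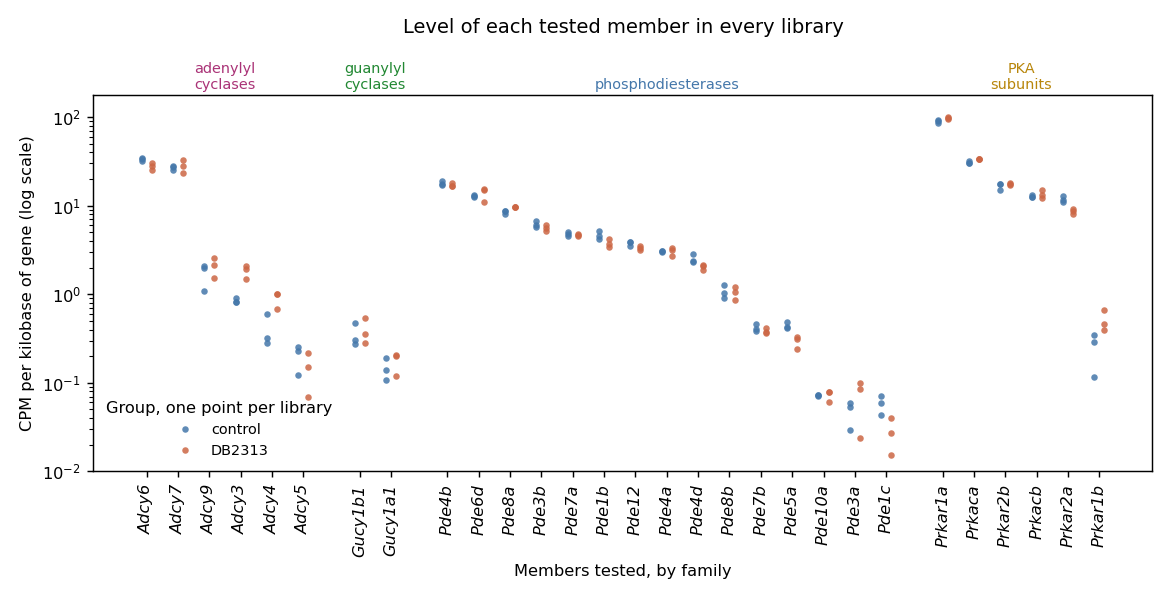
Level of each tested gene of the set in each of the 6 libraries, in CPM per kilobase of gene length on a log axis, ordered by family, with control and DB2313 libraries in different colours. Prkar1a stands at the top near 93.7 and the soluble guanylyl cyclase subunits lie below 1, and the distance between genes is much larger than that between groups.

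Adcy6 and Adcy7 made up most of the adenylyl cyclase level. Adcy6, a cyclase inhibited by calcium, had 217, 233 and 231 CPM in control libraries and 171, 188 and 204 CPM with DB2313. All 3 treated libraries were below all 3 controls, the means were 227 ± 8.75 and 188 ± 16.6 CPM (SD, n = 3), and the log2 fold change was -0.27 ± 0.08 (edgeR adjusted p = 0.0313). This call was near the threshold: it was lost with scaling to library totals (adjusted p = 0.0609) and without any 1 of the libraries except DB2313 replicate 3 (0.0667 to 0.147 without each of the others, 0.00165 without that one). Adcy7, the form typical of blood cells, had 180 ± 9.20 CPM in control libraries and 188 ± 30.3 with DB2313. Its treated libraries spread over 158, 188 and 218 CPM, on both sides of the controls, and its log2 fold change was 0.06 ± 0.10 (adjusted p = 0.780 by edgeR). The level per kilobase of Adcy6 over that of Adcy7 was 1.14 to 1.34 in control libraries and 0.929 to 1.08 with DB2313, without overlap. Adcy6 took 52.8% ± 2.45 of the adenylyl cyclase sum in control libraries and 45.8% ± 1.91 with DB2313, and Adcy7 42.2% ± 1.53 and 45.9% ± 1.51, so the order of the pair was no longer the same in every treated library.

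Adcy3, a cyclase regulated by calcium and calmodulin and best known from olfactory cilia, rose the most clearly. It had 84, 81 and 91 counts in control libraries and 154, 260 and 201 with DB2313. In CPM these were 5.16, 5.08 and 5.71 against 9.35, 13.0 and 12.1, so that the lowest treated library was well above the highest control. Its means were 5.32 ± 0.340 and 11.5 ± 1.91 CPM (SD, n = 3) and its log2 fold change was 1.11 ± 0.17 (edgeR adjusted p = 0.000749). The call held in all 15 alternative analyses, with log2 fold changes from 1.01 to 1.24. Of its exon bases, 22.1% also lie in exons of Cenpo, a centromere protein gene on the opposite strand. The strand setting of the counts was not stated. Cenpo had 15.3 ± 0.767 CPM in control libraries and 17.4 ± 1.61 with DB2313, with a log2 fold change of 0.19 ± 0.12 (adjusted p = 0.390 in edgeR).

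Adcy4, a cyclase of the same subgroup as Adcy7, was scarce. It had 46, 21 and 24 counts in control libraries and 53, 93 and 79 with DB2313, or 2.83, 1.32 and 1.51 CPM against 3.22, 4.66 and 4.75 CPM. The groups did not overlap, but control replicate 1 and DB2313 replicate 1 were close to each other. The means were 1.88 ± 0.823 and 4.21 ± 0.860 CPM, and the log2 fold change was 1.16 ± 0.32 (edgeR adjusted p = 0.0304). Without control replicate 2, control replicate 3 or DB2313 replicate 2 the adjusted p was 0.138, 0.117 and 0.130, and the log2 fold change was 0.96, 1.02 and 1.08. Even after the rise, Adcy3 and Adcy4 together with the other scarce cyclases remained a small part of the sum. Adcy3 took 1.34% ± 0.119 of the adenylyl cyclase level per kilobase in control libraries and 3.03% ± 0.335 with DB2313, and Adcy4 took 0.636% ± 0.276 and 1.48% ± 0.164.

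Of the other cyclases, Adcy9, which is poorly activated by forskolin, had 8.90 and 10.8 CPM and a log2 fold change of 0.28 ± 0.23 (edgeR adjusted p = 0.513). Adcy5, the close relative of Adcy6, had a log2 fold change of -0.48 ± 0.47 (edgeR adjusted p = 0.602). The remaining adenylyl cyclases were at or near 0: Adcy8 had no count in any library, Adcy1 at most 1 and Adcy2 at most 4. Adcy10, the soluble cyclase that responds to bicarbonate, had at most 2 counts in 5 libraries and 10 in DB2313 replicate 3. The floor set for a count of 0 was 3 counts, or 0.15 to 0.188 CPM in these libraries. A gene without a count may thus still be expressed below that level.

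**Figure D3:**
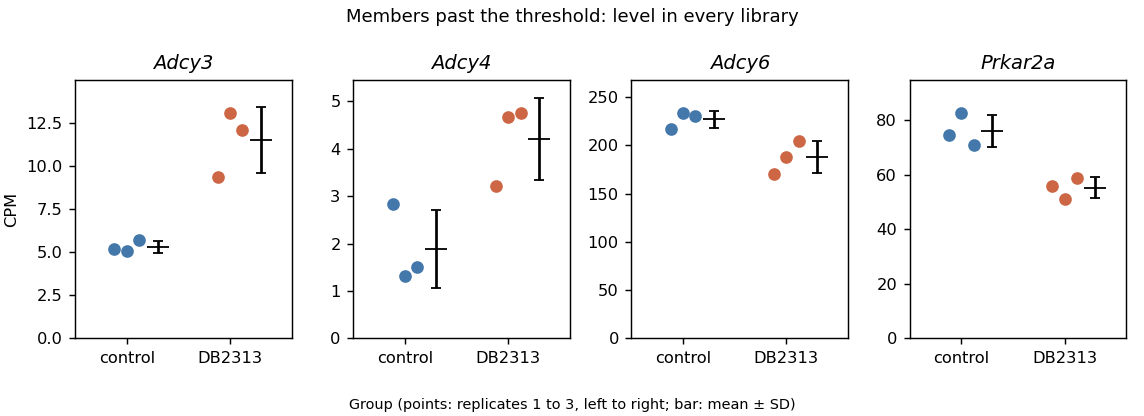
CPM of Adcy3, Adcy4, Adcy6 and Prkar2a in each library (points) with the group mean and SD (n = 3 per group), each gene on its own axis from 0. In each of the 4 genes the control and DB2313 libraries do not overlap, and the gap is widest relative to the spread for Adcy3.

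The sequences before the start sites of 3 of the 4 called genes are given to show whether they hold the core letters of an ETS site of the PU.1 type, since DB2313 is directed at that factor. They are RefSeq sequences of GRCm38.p6, 200 bases each, from 250 to 51 bases before the annotated start site, 5′ to 3′ on the strand of the gene. Capitals mark GAGGAA, or TTCCTC where it lies on the opposite strand. The first start site of Adcy3 has its window inside an exon and is not shown. The second, at position 4134153, lies within the gene of the table (chr12:4133103-4213525, + strand). The window of Adcy4 belongs to the start site at 55784072 (gene at chr14:55769057-55784095, - strand) and that of Prkar2a to the one at 108692143 (gene at chr9:108689314-108750436, + strand). This start site of Prkar2a and its window also lie within the gene of the table. Adcy6 lies at chr15:98589973-98610076 on the - strand.
Adcy3, chr12:4133903-4134102, + strand: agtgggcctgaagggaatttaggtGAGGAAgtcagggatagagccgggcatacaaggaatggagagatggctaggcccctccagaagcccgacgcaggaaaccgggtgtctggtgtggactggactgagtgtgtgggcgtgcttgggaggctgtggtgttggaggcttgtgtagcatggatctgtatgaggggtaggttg
Adcy4, chr14:55784123-55784322, - strand: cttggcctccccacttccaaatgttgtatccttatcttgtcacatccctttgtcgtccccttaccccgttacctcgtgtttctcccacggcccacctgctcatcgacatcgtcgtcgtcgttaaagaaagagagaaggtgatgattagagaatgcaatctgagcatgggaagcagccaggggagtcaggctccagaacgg
Prkar2a, chr9:108691893-108692092, + strand: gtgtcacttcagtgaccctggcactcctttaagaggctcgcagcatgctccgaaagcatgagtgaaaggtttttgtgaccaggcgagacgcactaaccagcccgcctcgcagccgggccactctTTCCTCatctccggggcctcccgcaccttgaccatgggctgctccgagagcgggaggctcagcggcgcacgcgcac

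The second window of Adcy3, which rose, and that of Prkar2a, which fell, each held the letters GAGGAA once. The first window of Adcy3, which was searched but is not shown, held none, and neither did that of Adcy4. These letters are common. On either strand they were in 18.8% of 32841 windows of the same length over all genes and in 11 of the 56 windows of the set (19.6%), which came from 25 of the 29 tested genes. The letters TGACGTCA, the cAMP response element bound by CREB, were in 0.828% of all windows and in 0 of the 56. Its shorter core TGACG, which is part of the former, was in 12.7% of all windows and in 6 of the 56 (10.7%). A match of letters is no measure of binding, and no binding was measured in these libraries.

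PKA is a complex of 2 kinds of subunit, and each kind was measured. Among the regulatory subunits, which bind cAMP, Prkar2a (the type II alpha form, which is tethered to organelles by anchoring proteins) fell. It had 1212, 1315 and 1130 counts in control libraries and 919, 1020 and 981 with DB2313, or 74.5, 82.5 and 70.9 CPM against 55.8, 51.2 and 58.9 CPM. All treated libraries were below all controls, with means of 75.96 ± 5.94 and 55.3 ± 3.92 CPM (SD, n = 3). The log2 fold change was -0.46 ± 0.09 (edgeR adjusted p = 0.00311), and the call held in all 15 alternatives, from -0.51 to -0.39. Prkar2b, the other type II form, had 61.2 and 63.9 CPM and a log2 fold change of 0.06 (edgeR adjusted p = 0.718). The level per kilobase of Prkar2b over that of Prkar2a was accordingly 1.36 to 1.5 in control libraries and 1.85 to 2.18 with DB2313, and the share of Prkar2a in the PKA sum was 7.35% ± 0.612 and 5.05% ± 0.385.

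The type I regulatory subunit Prkar1a, the most abundant gene of the set, had 391, 373 and 396 CPM in control libraries and 428, 431 and 411 with DB2313. Every treated library was above every control, but the log2 fold change of 0.13 ± 0.06 did not pass (edgeR adjusted p = 0.248). The catalytic subunit Prkaca had 76.6 ± 1.96 and 84.0 ± 0.593 CPM, a log2 fold change of 0.13 ± 0.07 and an edgeR adjusted p of 0.298, also without overlap. The other catalytic subunit, Prkacb, had 112 and 119 CPM and a log2 fold change of 0.09 (edgeR adjusted p = 0.587), with overlapping groups. Prkar1b, a form known mainly from brain, had 18, 21 and 7 counts in control libraries and 25, 51 and 29 with DB2313. Its log2 fold change of 1.02 ± 0.44 did not pass either (edgeR adjusted p = 0.167). Summed per kilobase, type I regulatory subunits had 89.8 ± 2.68 and 98.4 ± 2.56 CPM per kb, type II 28.7 ± 2.19 and 26.2 ± 0.570, and the catalytic subunits 43.5 ± 0.826 and 47.3 ± 1.5. The sums of the type I and of the catalytic subunits did not overlap between the groups, whereas for type II DB2313 replicate 1 and replicate 3 lay above control replicate 3.

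PKG, the kinase that reads out cGMP, was close to undetected. Prkg1 had 2, 0 and 4 counts in control libraries and 4, 3 and 2 with DB2313, and Prkg2 had none, so that no difference was detectable at this depth. The enzymes that make cGMP were scarce as well. Gucy1b1 and Gucy1a1, the beta and alpha subunits of the soluble guanylyl cyclase that nitric oxide activates, were the only members of their family that passed the filter. Gucy1b1 had 1.37 and 1.53 CPM and a log2 fold change of 0.17 ± 0.40 (edgeR adjusted p = 0.855), and Gucy1a1 had 1.02 and 1.23 CPM and a log2 fold change of 0.28 ± 0.42 (edgeR adjusted p = 0.759). The intestinal receptor cyclase Gucy2c had at most 6 counts in a library, the retinal forms Gucy2e and Gucy2f at most 11 and 2, Gucy1b2 and Gucy2g at most 3, and Gucy1a2 and Gucy2d none. The one abundant gene for a guanylyl cyclase was Npr1, the receptor for atrial natriuretic peptide, whose symbol lies outside the rule and which is described with the sources of cGMP below.

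The phosphodiesterases held 15 tested genes, and none of them passed. Their median log2 fold change was -0.067, 1 gene lay above and 4 lay below control without overlap, and 10 overlapped. Among all tested genes, 12.9% lay above and 14.5% below control without overlap. Pde4b, which degrades cAMP alone and is the main PDE4 form of leukocytes, was the most abundant, with 190 ± 8.99 CPM in control libraries and 181 ± 7.66 with DB2313. Its log2 fold change was -0.07 ± 0.07 (edgeR adjusted p = 0.628), and it took 26.9% and 26.3% of the family sum per kilobase. Pde6d, a carrier of lipid-modified proteins and no phosphodiesterase in itself, was next per kilobase. It had 28.1 and 30.2 CPM and a log2 fold change of 0.10 (edgeR adjusted p = 0.679). Pde6d took 19.3% and 21.2% of the family sum per kilobase, so that sum is not all enzyme that degrades cyclic nucleotides.

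Pde8a, a cAMP enzyme of high affinity, was the 1 phosphodiesterase whose treated libraries all lay above control. It had 34.7 ± 1.61 and 39.2 ± 0.502 CPM, a log2 fold change of 0.17 ± 0.09 and an edgeR adjusted p of 0.248. Below control without overlap lay 2 calcium and calmodulin-dependent enzymes (Pde1b and Pde1c), the cAMP-specific Pde4d and the cGMP-specific Pde5a, the target of sildenafil. Pde5a had 78, 66 and 67 counts in control libraries and 51, 47 and 54 with DB2313, with 4.38 ± 0.362 and 2.90 ± 0.476 CPM, a log2 fold change of -0.60 ± 0.24 and an edgeR adjusted p of 0.144. Pde1b had 25.2 ± 2.82 and 20.4 ± 2.07 CPM and a log2 fold change of -0.31 ± 0.12 (edgeR adjusted p = 0.118, and 0.0476 without DB2313 replicate 1). Pde4d had 30.0 ± 3.51 and 24.4 ± 1.79 CPM, with -0.30 ± 0.11 on the log2 scale (edgeR adjusted p = 0.104). Pde1c rested on 23, 14 and 19 counts against 5, 16 and 9, with -1.05 ± 0.48 on the log2 scale (edgeR adjusted p = 0.202). None of these differences passed the threshold.

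The other tested phosphodiesterases overlapped between the groups. Their log2 fold changes were -0.15 for Pde3b, which cGMP inhibits, -0.06 for Pde7a, -0.17 for the mitochondrial Pde12, -0.01 for Pde4a, -0.03 for Pde8b, -0.12 for Pde7b, 0.0079 for Pde10a and 0.56 ± 0.55 for the scarce Pde3a, with edgeR adjusted p-values from 0.330 upwards. Summed per kilobase over the isoforms, PDE4 had 23.6 ± 1.07 CPM per kb in control libraries and 22.3 ± 1.02 with DB2313, PDE8 9.65 ± 0.234 and 10.7 ± 0.142, PDE3 6.27 ± 0.480 and 5.69 ± 0.396, and PDE1 4.73 ± 0.535 and 3.80 ± 0.371. The cAMP-specific PDE4, PDE7 and PDE8 together had 38.5 ± 1.11 and 38.03 ± 1.25, so that the isoforms above and below control left their sum within the spread of the libraries. Of the phosphodiesterases that were not tested, Pde11a reached 16 counts, Pde6b 9, Pde4c 8, Pde6a and Pde6c 7, Pde9a 3 and Pde2a 1, and Pde1a had none.

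The genes of the set were long. The 29 tested genes had a median length of 6782 bp against 3988 bp for all tested genes, and 17 of them (58.6%) fell among the longest 25%. Length matters here since the libraries differed in how counts moved with it. Across genes, Spearman's rho between gene length and the deviation of a library was -0.29, -0.16 and 0.061 in the DB2313 libraries and -0.032, 0.18 and -0.18 in the controls. These values describe each library, and genes are no independent replicates. With an offset for gene length the 4 calls held, with Adcy6 at a log2 fold change of -0.25 (edgeR adjusted p = 0.0127).

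The set was then placed within its pathway by a list of 134 further genes in 10 groups, from receptors to target genes, written from general knowledge with earlier results of these data known, so that its counts are a description and no independent evidence. All were in the table and 90 were tested. Of these, 3 were higher and 16 were lower with DB2313 (21.1% called), beside 10.6% of all genes, and the median log2 fold change of the 90 genes was -0.07. Without control replicate 1 or DB2313 replicate 2 there were 8 lower, without control replicate 2 there were 10, and without DB2313 replicate 1 there were 6 higher. No test was made of the list as a whole.

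**Figure D4:**
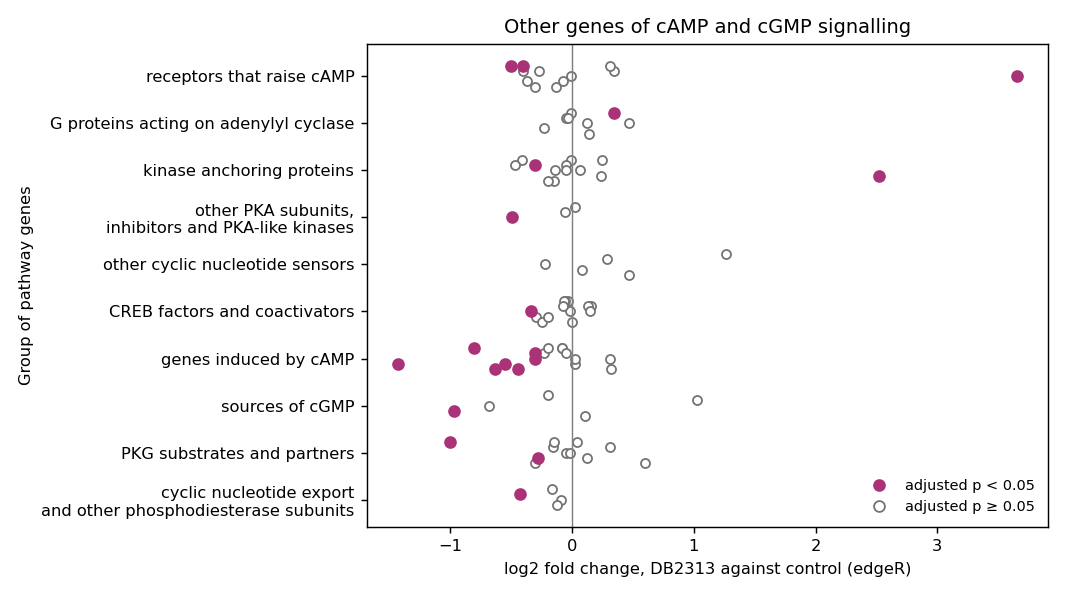
Log2 fold change, DB2313 against control, of the 90 tested pathway genes by group, each point 1 gene and filled where the edgeR adjusted p was under 0.05. Of the 19 filled points 16 lie below 0, with 7 in the row of genes induced by cAMP, and the 2 filled points farthest to the right are Adrb1 and Akap12, whose control libraries held at most 6 counts each.

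Upstream of the cyclases, 12 receptors that raise cAMP were tested, of which 2 fell and 1 rose. Gpr65, a receptor that senses acid, had 92.3, 101 and 96.8 CPM in control libraries and 77.7, 65.8 and 61.8 with DB2313. Its groups were well apart, and the log2 fold change of -0.50 ± 0.09 (edgeR adjusted p = 0.00211) held in all 15 alternatives. Adora2a, the adenosine receptor through which adenosine restrains leukocytes, had 104 ± 2.19 and 79.1 ± 11.2 CPM and a log2 fold change of -0.40 ± 0.09 (edgeR adjusted p = 0.0118, and 0.0546 to 0.101 without control replicate 1, 2 or 3 or DB2313 replicate 2). Adrb1, the beta-1 adrenergic receptor, had 1, 5 and 0 counts in control libraries and 24, 16 and 46 with DB2313, an edgeR adjusted p of 0.00568 (0.0502 without control replicate 1), and no fold is given for so few control counts. The prostaglandin E receptors Ptger4 and Ptger2 had log2 fold changes of -0.08 and -0.01 and did not pass (edgeR adjusted p = 0.566 and 0.981). Of 8 G proteins and regulators, 1 rose: Rgs2, which restrains G protein signals and can inhibit adenylyl cyclases, had 93.6 ± 4.10 and 119 ± 2.56 CPM, with a log2 fold change of 0.35 ± 0.07 and an edgeR adjusted p of 0.00586. Gnas, the stimulatory alpha subunit Gs, had a log2 fold change of -0.23 ± 0.08 (edgeR adjusted p = 0.0952).

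Around PKA, 1 anchoring protein rose and 1 fell of 13 tested. Akap12, a scaffold that holds PKA near the plasma membrane, had 5, 4 and 6 counts in control libraries and 39, 40 and 18 with DB2313. Its groups were far apart, with a log2 fold change of 2.52 ± 0.49 and an edgeR adjusted p of 0.00383. Cbfa2t3, a corepressor that also binds regulatory subunits of PKA, had 149 ± 13.6 and 121 ± 7.68 CPM and a log2 fold change of -0.30 ± 0.08 (edgeR adjusted p = 0.0282, and not called, with adjusted p up to 0.183, without control replicate 2 or 3 or DB2313 replicate 2). Prkx, a catalytic kinase closely related to those of PKA, had 59.5 ± 8.13 and 42.3 ± 1.44 CPM, and its log2 fold change of -0.49 ± 0.10 (edgeR adjusted p = 0.00465) held in all 15 alternatives. The PKA inhibitors Pkib and Pkig had log2 fold changes of 0.03 and -0.05 and did not pass.

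Downstream, 1 of 13 CREB factors and coactivators passed. It was Sik3, a salt-inducible kinase that PKA inhibits, with 165 ± 6.56 and 130 ± 12.2 CPM and a log2 fold change of -0.34 ± 0.08 (edgeR adjusted p = 0.0120, and 0.0511 to 0.0894 without control replicate 1 or 2 or DB2313 replicate 2). Creb1 itself had a log2 fold change of 0.16 ± 0.08 (edgeR adjusted p = 0.235). Of 16 tested genes that cAMP is known to induce, 7 fell and none rose by edgeR's test, beside 5.94% lower and 4.66% higher of all genes. The count rested in part on single libraries: of the 7 genes, 3 kept the call without control replicate 1 and 4 without DB2313 replicate 2. Rgs1, a regulator of G protein signals from chemokine receptors, had 122, 100.1 and 112 CPM in control libraries and 48.2, 39.6 and 36.2 with DB2313, a log2 fold change of -1.43 ± 0.11 (edgeR adjusted p = 9.76e-07). Nr4a3, an orphan nuclear receptor, had 188, 237 and 208 CPM against 128, 117 and 116, with -0.80 ± 0.09 on the log2 scale (edgeR adjusted p = 2.92e-05). Both held in all 15 alternatives, and in both the treated libraries lay far below the controls. Fos, a subunit of the AP-1 factor, had 60.4, 37.6 and 45.3 CPM against 30.0, 33.4 and 29.2, with a log2 fold change of -0.63 ± 0.14 (edgeR adjusted p = 0.00796, and 0.0529 without control replicate 1). Junb, Dusp1, Thbs1 and Egr1 were the other 4 that fell. Thbs1, a secreted matrix protein, held in all 15 alternatives, Junb in 12, and Dusp1 and Egr1 in 10 each. Without control replicate 1 or DB2313 replicate 2, Junb, Dusp1 and Egr1 all lost the call, and with scaling to library totals Dusp1 and Egr1 did. Many of these 16 genes respond to other stimuli as well as to cAMP, and Nr4a1 and Nr4a2, close relatives of Nr4a3, had log2 fold changes of 0.02 and 0.32 that did not pass (edgeR adjusted p = 0.971 and 0.159).

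On the side of cGMP, 1 of 5 tested sources passed. Npr1, which carries its own guanylyl cyclase domain, had 95.98, 101 and 98.3 CPM in control libraries and 53.3, 51.8 and 46.1 with DB2313. The libraries of each group lay close together and the groups far apart, with means of 98.5 ± 2.58 and 50.4 ± 3.78 CPM (SD, n = 3). The log2 fold change was -0.97 ± 0.08 (edgeR adjusted p = 3.11e-06), and it held in all 15 alternatives. At 15.6 CPM per kb over all libraries Npr1 stood far above Gucy1b1, which had 0.369. An antisense gene, Gm16048, shares 11.7% of the exon bases of Npr1 and had 6 counts in control replicate 3 and none in the other libraries. Nos2, the inducible nitric oxide synthase, had a log2 fold change of -0.68 ± 0.28 (edgeR adjusted p = 0.142).

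Of 11 tested substrates and partners of PKG, 2 fell. Mylk, the myosin light chain kinase, had 36.1 ± 1.57 and 17.97 ± 2.84 CPM, a log2 fold change of -1.0 ± 0.12 and an edgeR adjusted p of 6.53e-05, and held in all 15 alternatives. The summed level of 6 smooth muscle and fibroblast markers was 6.76 to 9.41 CPM in control libraries and 6.80 to 7.75 with DB2313, with Col3a1 at 0 in all libraries. Rgs3 had a log2 fold change of -0.28 ± 0.09 (edgeR adjusted p = 0.0458) and lost the call in 13 of 15 alternatives. Of the 4 tested genes for nucleotide export and other phosphodiesterase subunits, Abcc5, an exporter of cyclic nucleotides, fell, with 76.9 ± 9.98 and 57.3 ± 9.32 CPM and a log2 fold change of -0.43 ± 0.11 (edgeR adjusted p = 0.0262, 0.0514 with scaling to library totals, and 0.0602 to 0.172 without control replicate 1 or 2 or DB2313 replicate 2). None of the 5 tested genes for other sensors of cyclic nucleotides passed. These included Rapgef3 (Epac1), with a log2 fold change of 0.47 ± 0.56 (edgeR adjusted p = 0.681).

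**Figure D5:**
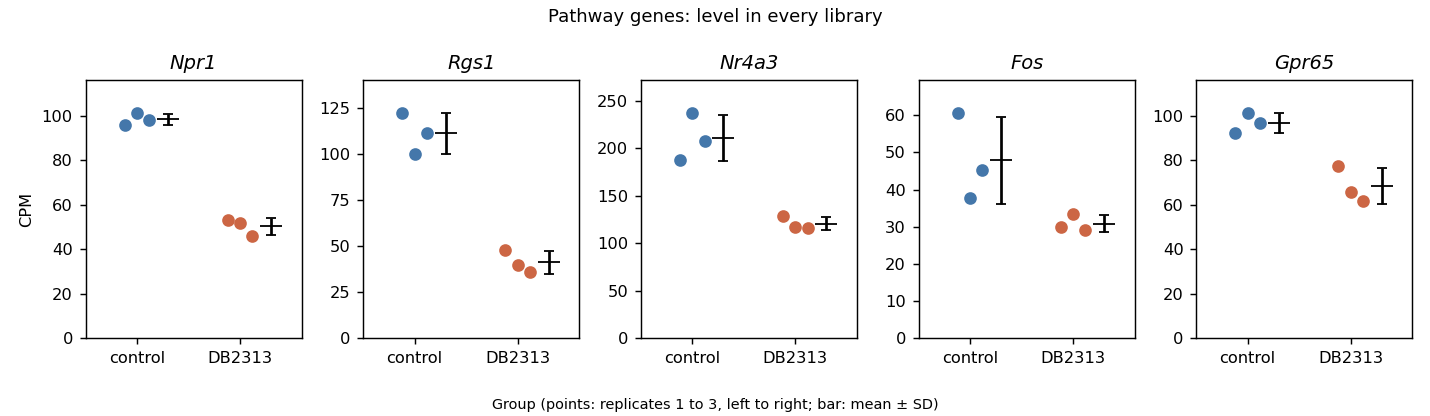
CPM in each library (points) with group mean and SD (n = 3 per group), each gene on its own axis from 0. The genes are Npr1, Rgs1, Nr4a3, Fos and Gpr65, pathway genes outside the set. The fall of Rgs1, Nr4a3 and Npr1 leaves wide gaps between the groups, while for Fos the lowest control library lies close to the highest DB2313 library.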

How the data were processed

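Members and gene lists were chosen with earlier results of these data known. The values deposited by the authors were unnormalised read counts, whole numbers for every gene and library in a single table that also gave gene lengths in base pairs. The submitters' processing notes name CASAVA 1.8, HISAT2 2.0.5 and featureCounts 1.5.0-p3, whereas the methods of the study name LifeScope. The build, the strand setting and the treatment of reads with several matches are not given in the sources used here. Start and end of 98.33% of the 54495 genes also present in GENCODE M21 were identical there, so coordinates are given as GRCm38.

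Genes were tested with the quasi-likelihood test of edgeR 4.0.16 (R 4.3.3) after TMM scaling and filterByExpr, in a model with a term for group alone, and p-values were adjusted by Benjamini-Hochberg over 14174 genes. A gene was called at an adjusted p under 0.05. Adjusted p-values come from this test, log2 fold changes are DB2313 against control with SE, and group values are mean ± SD. The 15 alternatives were size factors of DESeq2, library totals, a filter at a mean of 10 counts, no filter, DESeq2 1.42.0, voom of limma 3.58.1, an offset for gene length, a replicate block, both of these, and leaving out each of the 6 libraries. The script was tested on simulated data. Levels were compared between genes per kilobase. Overlapping exons were read from GENCODE M21. Genes named were every called gene of the set, the most abundant of each family, at most 3 called genes per pathway group by size of change, and Spi1, besides genes of the set given by their log2 fold change. Further pathway genes that did not pass (prostaglandin receptors, Gnas, PKA inhibitors, Creb1, Nr4a1, Nr4a2, Nos2 and Rapgef3) were chosen after their values were seen. Replicates of a group differed by more than sampling noise. Counts are of reads without molecular identifiers, and floors cover counting error only.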

Additional observations from a re-analysis of the deposited data

How the results depend on the processing

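In the set, 2 genes were higher and 2 lower. Leaving out 1 library gave 1 to 2 higher and 1 to 2 lower, and scaling to library totals and the replicate block each gave 1 lower, since Adcy6 was lost (adjusted p = 0.0609 and 0.0583). Among all genes, leaving out 1 library gave 328 to 1097 higher and 411 to 1311 lower. In the pathway list, 3 higher and 16 lower became 2 to 6 and 8 to 24 without 1 library, and 5 were higher with the length offset, alone (5) or with the block (5). The summed log2 ratio of the PKA subunits, 0.09, was 0.11 with library totals. That of the adenylyl cyclases, -0.07, was -0.16 to 0.03 without 1 library. Besides, signs changed in genes of the set that had not passed. Adcy7 ranged from -0.06 to 0.17, Gucy1b1 from -0.14 to 0.44, Pde4a from -0.071 to 0.074, Pde8b from -0.14 to 0.11, Pde10a from -0.053 to 0.12 and Prkar2b from -0.0030 to 0.10 without 1 library. Pde4b was 0.0085 with the length offset and 0.0080 with the block added. Pde4a was 0.017 with library totals, 0.0018 without a filter, 0.031 with the length offset and 0.029 with the block added, and Pde10a was -0.0024 with voom. The cause was not tested.

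The labels number the libraries of both groups 1 to 3. Same-numbered libraries did not deviate together (correlations 0.0041, -0.024 and -0.11), and differently numbered ones were also near 0 (-0.06 to 0.085). With 3 libraries per group, these values cannot decide whether the numbers pair the libraries. With the replicate block 502 genes were higher and 629 lower, against 661 and 842. Prkar2a and Adcy3 kept their calls, while Cbfa2t3, Dusp1 and Rgs3 of the pathway genes lost theirs (adjusted p = 0.0541, 0.0698 and 0.113).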
